A study of Rattus norvegicus with 31 samples.

Results

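The change that calcitriol brought on top of a high-salt diet was compared between 2 rat (Rattus norvegicus) tissues, the kidney cortex and the colon. Calcitriol is the hormonal form of vitamin D. RNA from these tissues was sequenced in high-salt model rats (HS) and in rats given a high-salt diet with calcitriol (CAL), and 20 of the 31 libraries of the study enter the comparison: 4 HS and 6 CAL libraries of cortex, and 4 HS and 6 CAL libraries of colon. All of these groups share the high-salt diet, and the normal control group (NC, 10 libraries) took no part in the main tests. The labels name no dose, duration, strain, sex, age or hour of collection, and do not say whether each library is a separate animal, so a p-value measures the spread between libraries, which may in part be technical.

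The fifth colon HS library, replicate 3, was left out because of its own measured values. Its 17 listed small intestine marker genes summed to 25063 counts per 1e6 counts (CPM), against 606 to 1079 CPM in the 4 colon HS libraries kept and 800 to 1070 CPM in the 6 colon CAL libraries. The tissue labels matched the markers otherwise. Proximal tubule markers summed to 25337 to 30935 CPM in the cortex libraries and 55.4 to 175 CPM in the colon libraries, and surface colonocyte markers to 345 to 500.2 CPM and 9564 to 21503 CPM.

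Calcitriol acts through the vitamin D receptor, a nuclear receptor that pairs with the retinoid X receptor and switches genes on or off. In the intestine it is known for raising calcium uptake through the channel Trpv6 and the calcium carrier S100g. In the kidney it is known for raising Cyp24a1, the enzyme that breaks calcitriol down, and for lowering Cyp27b1, the enzyme that makes it.

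The libraries were shallow, with 289529 to 2265164 counts per cortex library and 267976 to 918820 per colon library. A count of 0 allows between 1.32 and 11.2 CPM, taking 3 counts as the limit, and this covers counting error only. Genes varied less between cortex libraries of a group (median SD 0.31 on the log2 scale) than between colon libraries (0.48). Colon HS libraries also differed in marker sums. The 16 smooth muscle markers summed to 3938, 34502, 5963 and 24822 CPM in replicates 1, 2, 4 and 5, against 5704 to 9476 CPM in the 6 CAL libraries. The 11 B and plasma cell markers summed to 6569 and 5293 CPM in HS replicates 4 and 5, against 2029 and 2238 CPM in replicates 1 and 2 and 2039 to 3105 CPM in CAL. In such bulk tissue, fewer cells of a type and less RNA per cell cannot be told apart.

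Over the 5305 genes that passed the filter on low counts in both tissues, the cortex and colon effects were nearly uncorrelated, and no single gene was shown to respond differently. No gene passed the test of the difference, the colon effect minus the cortex effect (0% of genes called by the edgeR quasi-likelihood test at an adjusted p under 0.05, lowest adjusted p 0.243). Without adjustment, 417 genes had a p under 0.05 for the difference (7.86%), the colon effect being the higher for 197 (3.71%) and the lower for 220 (4.15%). The median standard error of a difference was 0.38 on the log2 scale, and in simulated counts of the same design the test recovered 12% of genes with a log2 difference of 1 and 88% with a difference of 2. Differences around 1 were therefore mostly not detectable at this depth and number of libraries. Leaving out colon HS replicate 1 alone gave 13 calls for the difference, 3 higher in colon, Sppl2a among them, and 10 lower, Rbpms and Aldh2 among them.

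Within each tissue of that fit, 0 genes passed in cortex (0%) and 7 in colon (0.132%). At an unadjusted p under 0.05 there were 403 in cortex (7.6%, with 3.9% higher and 3.69% lower in CAL) and 575 in colon (10.8%, with 4.94% higher and 5.9% lower). The CAL and HS libraries did not overlap for 4.62% of genes in cortex and 1.04% in colon. That fit uses 1 estimate of the spread of a gene for both tissues, although colon libraries varied more. With each tissue fitted alone the order reversed, with 30 of 7119 genes passing in cortex (0.421%) and 1 of 6294 in colon (0.0159%). At an unadjusted p under 0.05 those fits gave 15.5% in cortex and 6.48% in colon. The counts therefore do not rank the tissues by response.

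Across the same genes, the cortex and colon effects had a Pearson correlation of 0.05 and a Spearman correlation of 0.04. These are descriptions across genes, which are not independent. The 2 effects had the same sign for 2717 genes (51.2%). No gene passed when the larger of its 2 p-values was adjusted over all genes (0%, lowest 0.919). At an unadjusted p under 0.05 in both tissues, 39 genes had the same sign (0.735% of genes, 29 higher and 10 lower). Opposite signs were found for 12 genes (0.226%). Taken singly, 3.9% of genes were higher and 3.69% lower in cortex, and 4.94% and 5.9% in colon. How many genes such shares would place in both tissues by coincidence was not computed, so no shared response is read from these counts. Without colon CAL replicate 1, 3 genes passed the larger-p test, the haemoglobin genes Hbb, Hba-a1 and Hba-a2, each at an adjusted p of 0.0402.

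**Figure D1:**
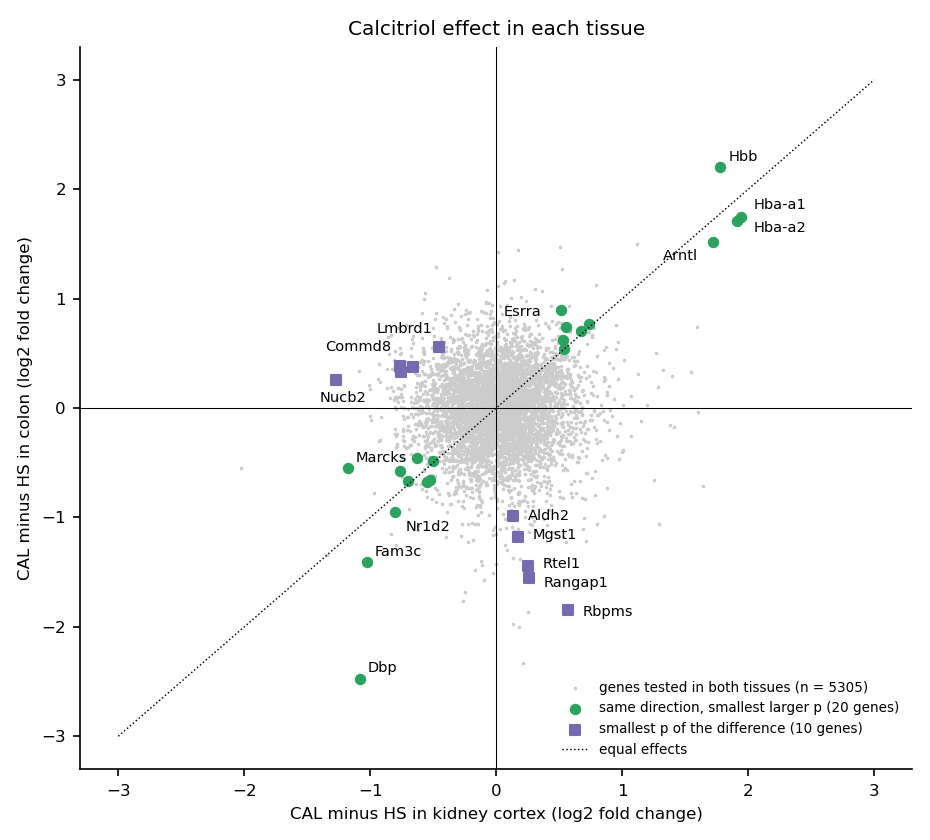
Log2 fold change of CAL over HS in the kidney cortex (horizontal axis) and in the colon (vertical axis) from the fit of 20 libraries, with each grey point 1 of 5305 genes. Green points are the 20 genes named for the same direction in both tissues and purple squares the 10 named for the difference; the haemoglobin genes and Arntl lie far out near the dotted line of equal effects, Dbp lies below that line at the lower left, and Rbpms lies low at the right of 0.

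Haemoglobin chain genes had the largest effects among the genes named as higher in both tissues. They are made in red blood cell precursors, and their RNA persists in young red cells. Hbb, the beta chain, was at 949, 547, 699.8 and 427 CPM in the 4 cortex HS libraries and at 1544 to 3508 (median 2049) CPM in the 6 cortex CAL libraries. In colon it was at 135, 108, 79.2 and 169 CPM in HS and at 129 to 956 (median 609) CPM in CAL. Every cortex CAL library lay above every HS library. In colon the groups overlapped, with CAL replicates 1 and 4 (129 and 167 CPM) at the HS level and the other 4 above it.

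The log2 fold change of Hbb was 1.78 (SE 0.41, adjusted p = 0.202) in cortex and 2.20 (SE 0.45, adjusted p = 0.0364) in colon, and the difference between them was 0.42 (SE 0.57, adjusted p = 0.871). The fit of all 20 libraries uses 1 estimate of the spread for both tissues. With the cortex fitted alone the effect was 1.78 (SE 0.23, adjusted p = 1.69e-04), and with the colon fitted alone 2.18 (SE 0.51, adjusted p = 0.328). Hba-a1, an alpha chain, was at 604, 282, 437 and 467 CPM in cortex HS and 1300.3 to 2344 (median 1604) CPM in cortex CAL. In colon HS it was at 69.8, 49.0, 133 and 117 CPM, and in colon CAL at 66.0 to 562 (median 319.9) CPM, with the same 2 CAL libraries in the HS range. Its effects were 1.94 (SE 0.40) and 1.75 (SE 0.44), and those of Hba-a2 were 1.91 (SE 0.40) and 1.71 (SE 0.46). Fitted in cortex alone, both rose (adjusted p = 3.66e-06 and 5.27e-06), whereas in colon alone they did not pass (0.655 and 0.713). Hba-a1 and Hba-a2 are near-identical copies whose reads may be split between them.

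Another erythroid gene moved with them in cortex. Alas2, the erythroid enzyme that starts haem synthesis, and the globin gene Hba-a3 were tested in cortex only, where they rose by 2.51 (SE 0.37, adjusted p = 0.00145) and 1.91 (SE 0.33, adjusted p = 0.00536) in the fit of cortex alone. The Hba-a3 call was lost without cortex HS replicate 4 (0.0758), and those of Alas2, Hbb, Hba-a1 and Hba-a2 in cortex held without each library in turn. The 9 listed erythrocyte markers together summed to 1055 to 1864 CPM in cortex HS and 3726 to 6890 CPM in cortex CAL, and to 252 to 451 CPM in colon HS and 293 to 2034 CPM in colon CAL. None of the 9 was at 0 in all libraries of a group. Hbb, Hba-a1 and Hba-a2 held most of the counts in these sums, which therefore largely restate those genes. Slc4a1, another of the 9, was not among the 30 genes that passed in the fit of cortex alone. The part of blood left in the tissue in this result was not tested.

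Genes of the circadian clock were also among those named for the same direction. The clock is a feedback loop in which Arntl (also named Bmal1) and its partner switch on genes through E-boxes, the repressors Nr1d1 and Nr1d2 act on ROR elements to hold Arntl down, and the output factors Dbp and Tef bind D-boxes. Arntl was at 13.4, 4.54, 3.55 and 8.45 CPM in cortex HS and 13.6 to 50.5 (median 19.5) CPM in cortex CAL, and at 49.0, 22.5, 37.2 and 39.9 CPM in colon HS and 57.3 to 146 (median 113) CPM in colon CAL. In both tissues every CAL library lay above every HS library. The cortex separation rests on few counts, 6 in HS replicate 1 (13.4 CPM) against 9 in CAL replicate 4 (13.6 CPM), and is within counting error. Separation in both tissues held for 2 of the 5305 genes (0.0377%), Arntl and Esrra, and no gene was apart in both tissues in opposite directions. Singly, 4.62% of genes were apart in cortex and 1.04% in colon. How many would be apart in both by coincidence was not computed, so nothing is read from that count. The Arntl effects were 1.72 (SE 0.45, adjusted p = 0.310) in cortex and 1.52 (SE 0.32, adjusted p = 0.0364) in colon, with a difference of -0.19 (SE 0.52).

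Dbp moved the other way. It was at 203, 144, 231 and 148 CPM in cortex HS and 35.0 to 144 (median 88.3) CPM in cortex CAL, and at 70.8, 106, 142 and 117 CPM in colon HS and 11.5 to 39.4 (median 17.5) CPM in colon CAL. All 6 CAL libraries lay below the HS mean in each tissue, and in colon the groups did not overlap. Dbp fell by 2.47 on the log2 scale in colon (SE 0.36, adjusted p = 7.41e-04), the smallest p of any gene there, and it was the only gene to pass in the fit of colon alone (1 of 6294 genes, 0.0159%, adjusted p = 0.00231). Its cortex effect was -1.08 (SE 0.29, adjusted p = 0.332). The colon minus cortex difference, -1.39 (SE 0.47, adjusted p = 0.463), did not pass, so a deeper fall in colon was not shown.

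Upstream sequences of the clock genes whose levels are described here were searched for the elements of that loop, and windows with a match are shown. All 8 clock genes looked up matched the RefSeq promoter table (build GRCr8), Arntl under its symbol Bmal1. Each run below is the 250 bases before a start site, 5′ to 3′, with the matched motif in capitals. Searched on both strands were the E-box CACGTG (in 5.59% of the 33469 windows of the table), a ROR element, AA then any base then TAGGTCA (0.206%), and a D-box TTATGTAA (0.828%). None of the 3 contains another.
Arntl, chr1:176766078-176766327, plus strand, ROR element: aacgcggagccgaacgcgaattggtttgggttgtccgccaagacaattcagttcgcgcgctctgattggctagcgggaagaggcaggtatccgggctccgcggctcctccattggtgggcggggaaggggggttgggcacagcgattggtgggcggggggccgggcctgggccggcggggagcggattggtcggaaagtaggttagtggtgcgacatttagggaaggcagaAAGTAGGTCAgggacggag
Nr1d1, second start, chr10:84229455-84229704, minus strand, E-box: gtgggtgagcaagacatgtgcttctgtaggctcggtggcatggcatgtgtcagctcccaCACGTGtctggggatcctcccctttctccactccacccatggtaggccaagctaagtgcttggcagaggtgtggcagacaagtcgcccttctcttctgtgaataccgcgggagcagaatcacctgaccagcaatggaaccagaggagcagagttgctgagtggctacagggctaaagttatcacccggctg
Tef, chr7:115206577-115206826, plus strand, E-box: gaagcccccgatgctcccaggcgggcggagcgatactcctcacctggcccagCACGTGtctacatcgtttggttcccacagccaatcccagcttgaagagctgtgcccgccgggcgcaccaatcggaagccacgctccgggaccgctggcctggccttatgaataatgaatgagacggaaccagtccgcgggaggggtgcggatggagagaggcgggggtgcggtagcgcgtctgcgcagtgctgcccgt
Bhlhe40, chr4:143174200-143174449, plus strand, E-box: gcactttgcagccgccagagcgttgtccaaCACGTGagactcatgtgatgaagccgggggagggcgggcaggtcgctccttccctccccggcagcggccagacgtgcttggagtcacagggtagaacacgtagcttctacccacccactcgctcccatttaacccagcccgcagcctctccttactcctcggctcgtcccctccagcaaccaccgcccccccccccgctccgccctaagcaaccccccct
Per2, chr9:99496994-99497243, minus strand, D-box: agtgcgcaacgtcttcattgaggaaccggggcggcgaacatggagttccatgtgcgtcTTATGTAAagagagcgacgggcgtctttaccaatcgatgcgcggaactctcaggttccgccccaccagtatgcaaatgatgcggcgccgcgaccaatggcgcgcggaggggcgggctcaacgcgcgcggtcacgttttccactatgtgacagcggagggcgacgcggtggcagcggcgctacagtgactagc
The windows of Dbp, Nr1d2, Usp2 and the first start of Nr1d1 held none of these letters. A match describes the sequence and does not show that a factor binds there.

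The repressors Nr1d2 and Nr1d1 act on ROR elements such as that of Arntl. Nr1d2 was at 116, 95.4, 99.5 and 90.5 CPM in cortex HS and 33.4 to 81.9 (median 61.2) CPM in CAL, and at 55.2, 67.4, 51.2 and 119.6 CPM in colon HS and 11.2 to 69.3 (median 25.8) CPM in CAL. All cortex CAL libraries lay below all HS libraries, and in colon only CAL replicate 1 (69.3 CPM) lay above the HS median. Its effects were -0.80 (SE 0.30) in cortex and -0.95 (SE 0.33) in colon, neither past the threshold. Nr1d1 was at 63.5, 85.8, 217 and 150.3 CPM in colon HS and 16.9 to 69.1 (median 46.4) CPM in colon CAL, an effect of -1.39 (SE 0.33, adjusted p = 0.104). Its cortex level was 33.4, 30.3, 46.2 and 26.5 CPM in HS and 27.2 to 83.9 (median 41.3) CPM in CAL, an effect of 0.41 (SE 0.37). The difference for Nr1d1, -1.80 (SE 0.50, adjusted p = 0.350), did not pass.

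Of the remaining clock genes, Tef had effects of -0.18 (SE 0.28) in cortex and -1.20 (SE 0.35) in colon, where all 6 CAL libraries lay below all HS libraries. That separation rests on few counts, 33 in HS replicate 1 against 31 in CAL replicate 1 and 9 in CAL replicate 3, and is within counting error. Bhlhe40, a repressor that competes for E-boxes, had effects of 0.21 (SE 0.26) and -0.26 (SE 0.27). Neither gene passed in either tissue. Usp2, a clock-driven deubiquitinase, fell by 0.97 (SE 0.19, adjusted p = 0.0227) in the fit of cortex alone, a call lost without cortex HS replicate 1 or 4 or CAL replicate 1 (0.0531 to 0.102), and had an effect of -0.77 (SE 0.51) in the fit of colon alone. The period gene Per2 passed the filter in cortex only, with an effect of -0.18 (SE 0.34), and in colon it was at 29.2, 14.3, 39.6 and 52.1 CPM in HS and 7.27 to 14.3 (median 11.5) CPM in CAL, all 6 below the HS mean. Per1 passed in neither tissue, at 0 to 13.4 CPM in the 20 libraries.

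Of the 20 listed clock genes, 9 were tested in both tissues. Their median effect was 0.00 in cortex and -0.78 in colon, against 0.01 and 0.00 over all 5305 genes. None passed for the difference, and 3 were lower in colon at an unadjusted p under 0.05 (4.15% of all genes). In the colon contrast of the same fit 1 rose (Arntl) and 1 fell (Dbp), where 0.132% of all genes passed. At an unadjusted p under 0.05 in that contrast 1 was higher and 4 were lower (4.94% and 5.9% of all genes). The labels give no hour of collection for any library, so none could be compared between HS and CAL.

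**Figure D2:**
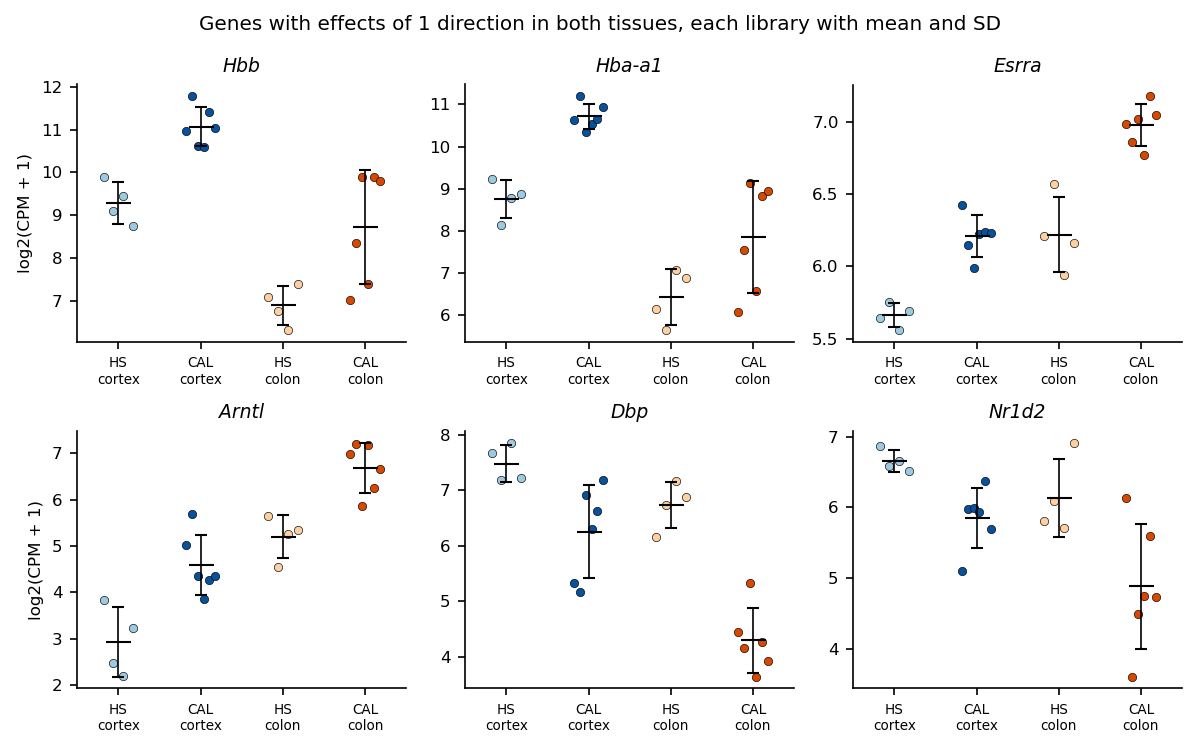
Level of 6 genes in each library as log2(CPM + 1), by tissue and treatment, with the mean and SD of each group as bars. Arntl and Esrra are higher in every CAL library than in every HS library of the same tissue, whereas Hbb and Hba-a1 overlap in the colon, where 2 CAL libraries stay at the HS level.

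Apart from globins and clock genes, the genes named for the same direction had effects of at most 1.41 on the log2 scale, and of these Marcks alone passed, in the fit of cortex alone. Esrra, a nuclear receptor that drives mitochondrial genes, was at 49.0, 53.0, 46.2 and 50.7 CPM in cortex HS and 62.5 to 85.0 (median 74.0) CPM in CAL. Its colon level was 72.9, 93.9, 60.5 and 70.5 CPM in HS and 108 to 144 (median 127) CPM in CAL. The groups were apart in both tissues, with effects of 0.56 (SE 0.19, adjusted p = 0.528) and 0.74 (SE 0.18, adjusted p = 0.107).

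The other 5 named genes higher in both tissues had effects between 0.52 and 0.89, with every CAL library above the HS mean in each tissue. Rab17, a GTPase of polarised transport in epithelia, had effects of 0.52 (SE 0.20) in cortex and 0.89 (SE 0.25) in colon. Mafk, a small Maf transcription factor, had 0.73 (SE 0.26) and 0.77 (SE 0.23). Spsb3, an adaptor of a ubiquitin ligase, had 0.53 and 0.62. Tp53inp2, which acts in autophagy, had 0.54 and 0.54. Rpl30, a ribosomal protein whose reads may be shared with pseudogenes, had 0.67 and 0.70.

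Of the genes with negative effects in both tissues, Fam3c, which encodes a secreted cytokine-like protein, was at 33.4, 63.6, 49.7 and 36.2 CPM in cortex HS and 13.6 to 35.2 (median 20.8) CPM in CAL. Colon levels were 29.2, 51.0, 30.3 and 46.0 CPM in HS and 5.70 to 22.0 (median 13.6) CPM in CAL, with no overlap there. Its effects were -1.03 (SE 0.31) and -1.41 (SE 0.35). Marcks, an actin-binding substrate of protein kinase C, was at 51.3, 57.5, 63.9 and 48.3 CPM in cortex HS and 14.6 to 34.6 (median 25.1) CPM in CAL, and it fell by 1.20 in the fit of cortex alone (SE 0.25, adjusted p = 0.0295). That call was lost on leaving out any 1 of the 4 cortex HS libraries or CAL replicates 1 or 4 (adjusted p up to 0.143). Its colon effect was -0.55 (SE 0.22), and the difference 0.63 (SE 0.34) did not pass.

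Rtn4, a protein that shapes the endoplasmic reticulum, had effects of -0.70 in cortex and -0.67 in colon. Rbm3, a cold-induced RNA-binding protein, had -0.63 and -0.45. Tmem33, Dars (aspartyl-tRNA synthetase), Ctdspl2 and Atrn had effects between -0.76 and -0.48 in both tissues. These genes were named by the size of the larger p, so their directions and overlaps are given as descriptions.

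The 5 genes with the smallest p for a colon effect below the cortex effect had a cortex effect above 0 and a colon effect of -0.99 or below. Rbpms, an RNA-binding protein abundant in smooth muscle, was at 82.5, 81.8, 42.6 and 80.8 CPM in cortex HS and 89.4 to 127 (median 107) CPM in CAL. In colon it was at 18.7, 91.9, 23.3 and 39.9 CPM in HS replicates 1, 2, 4 and 5 and 2.88 to 22.5 (median 12.3) CPM in CAL. All cortex CAL libraries lay above all HS libraries, and in colon all 6 lay below the HS mean with overlap. The difference was -2.42 (SE 0.51, adjusted p = 0.243).

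Colon HS replicates 2 and 5 had the highest Rbpms levels and also the highest smooth muscle sums given above. Without those 2 libraries the difference for Rbpms was -1.39 (adjusted p = 0.257), over 1.5 times smaller. It passed with DESeq2 (-2.47, adjusted p = 0.0144) and on leaving out colon HS replicate 1 (-2.74, adjusted p = 0.0199). Colon CAL libraries held 2 to 12 counts of Rbpms each, and it was tested in 15 of the 20 fits without 1 library.

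Aldh2, the mitochondrial aldehyde dehydrogenase, was at 820.1, 684, 749.5 and 773 CPM in cortex HS and 679 to 999.9 (median 826) CPM in CAL, and at 219.8, 492, 431 and 313 CPM in colon HS and 146 to 222 (median 177) CPM in CAL. Colon HS replicate 1 lay within the CAL range and the other HS libraries above it. Aldh2 fell by 0.99 in colon (SE 0.19, adjusted p = 0.0364) and had a cortex effect of 0.13 (SE 0.19). The difference, -1.12 (SE 0.27, adjusted p = 0.243), passed only without colon HS replicate 1 among the 20 libraries left out in turn (-1.30, adjusted p = 0.0278). Mgst1, a membrane-bound glutathione transferase, was at 39.6, 53.1, 27.9 and 39.9 CPM in colon HS and 10.7 to 30.9 (median 16.6) CPM in colon CAL. Its cortex groups, at 310.1 to 377 CPM in HS and 309 to 494 (median 373) CPM in CAL, overlapped, and the difference was -1.35 (SE 0.32).

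Rangap1, which activates the Ran GTPase of nuclear transport, was at 37.5, 32.7, 53.5 and 49.1 CPM in colon HS and 7.27 to 28.1 (median 12.6) CPM in colon CAL, with no overlap. Rtel1, a helicase that protects telomeres, was at 36.5, 22.5, 34.9 and 36.8 CPM in colon HS and 5.62 to 14.3 (median 12.1) CPM in CAL, also with no overlap. These colon CAL levels rest on 3 to 10 counts per library for Rangap1 and 2 to 13 for Rtel1, some at or under the limit of 3 counts. Both genes fell in colon, by 1.56 (SE 0.33) and 1.44 (SE 0.30), each with an adjusted p of 0.0364. Their cortex effects were 0.26 (SE 0.28) and 0.25 (SE 0.28), and their differences -1.82 (SE 0.43) and -1.69 (SE 0.41) did not pass.

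Bcat2, a mitochondrial enzyme that breaks down branched-chain amino acids, completed the colon calls. It was at 92.7, 65.3, 109 and 49.1 CPM in colon HS and 25.6 to 45.4 (median 38.0) CPM in CAL, with no overlap, and it fell by 1.15 (SE 0.23, adjusted p = 0.0364). In cortex it was at 98.1, 117, 128 and 119 CPM in HS and 94.9 to 134 (median 117) CPM in CAL, an effect of 0.00 (SE 0.20). In all, 7 of 5305 genes passed in colon in the fit of both tissues (0.132%): Hbb and Arntl rose, and Dbp, Aldh2, Bcat2, Rangap1 and Rtel1 fell. Of these, Dbp alone passed in the fit of colon alone and on leaving out each library in turn. The other 6 each lost their call in 7 to 11 of the 20 such fits, or of the 16 in which Rtel1 was tested. Each of the 6 did so without cortex HS replicate 4, without cortex CAL replicate 5 and without colon HS replicate 4 (adjusted p up to 0.128). The Dbp call was itself lost with voom library weights and with 1 voom weight per tissue, where 0 colon genes passed (adjusted p up to 0.546). The count of colon calls was 1 without cortex HS replicate 4, cortex CAL replicate 5, colon HS replicate 4 or colon CAL replicate 5. It was 2 to 4 without colon HS replicate 5 or colon CAL replicates 3, 4 or 6, 25 without colon CAL replicate 1, and 86 without colon HS replicate 1.

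The 5 genes with the smallest p in the other direction had cortex effects of -0.45 or below and colon effects above 0. Commd8, a subunit of an endosomal recycling complex, was at 105, 96.9, 92.4 and 86.9 CPM in cortex HS and 33.2 to 80.8 (median 54.1) CPM in CAL, and at 56.2, 69.4, 60.5 and 98.1 CPM in colon HS and 72.0 to 100.2 (median 95.3) CPM in CAL. Every cortex CAL library lay below every HS library, and every colon CAL library above the HS mean. Its difference was 1.15 (SE 0.30, adjusted p = 0.350).

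Nucb2, a calcium-binding protein and the precursor of nesfatin, was at 49.0, 36.3, 32.0 and 33.8 CPM in cortex HS and 10.9 to 21.4 (median 15.6) CPM in CAL. It fell in the fit of cortex alone by 1.28 (SE 0.26, adjusted p = 0.0284), a call lost without cortex HS replicate 1, 2 or 4 or CAL replicate 1 (0.0674 to 0.118). Its colon level was 24.0, 63.3, 30.3 and 55.2 CPM in HS and 35.2 to 72.7 (median 47.3) CPM in CAL, with overlap. The difference was 1.53 (SE 0.43, adjusted p = 0.350).

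Lmbrd1, which exports vitamin B12 from lysosomes, was at 160.4, 117, 78.1 and 103 CPM in cortex HS and 78.3 to 93.8 (median 82.9) CPM in CAL, and at 85.4, 81.7, 74.5 and 88.9 CPM in colon HS and 98.4 to 162 (median 118) CPM in CAL. The colon groups did not overlap, the cortex groups did, and the effects were -0.45 (SE 0.19) and 0.56 (SE 0.20). Tmem41b, a lipid scramblase of the endoplasmic reticulum, had effects of -0.75 in cortex and 0.33 in colon, and Yipf4, a Golgi membrane protein, -0.66 and 0.37. In cortex every CAL library lay below every HS library for both genes. All 10 genes named for the difference were chosen by that p, so their pattern is a description.

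**Figure D3:**
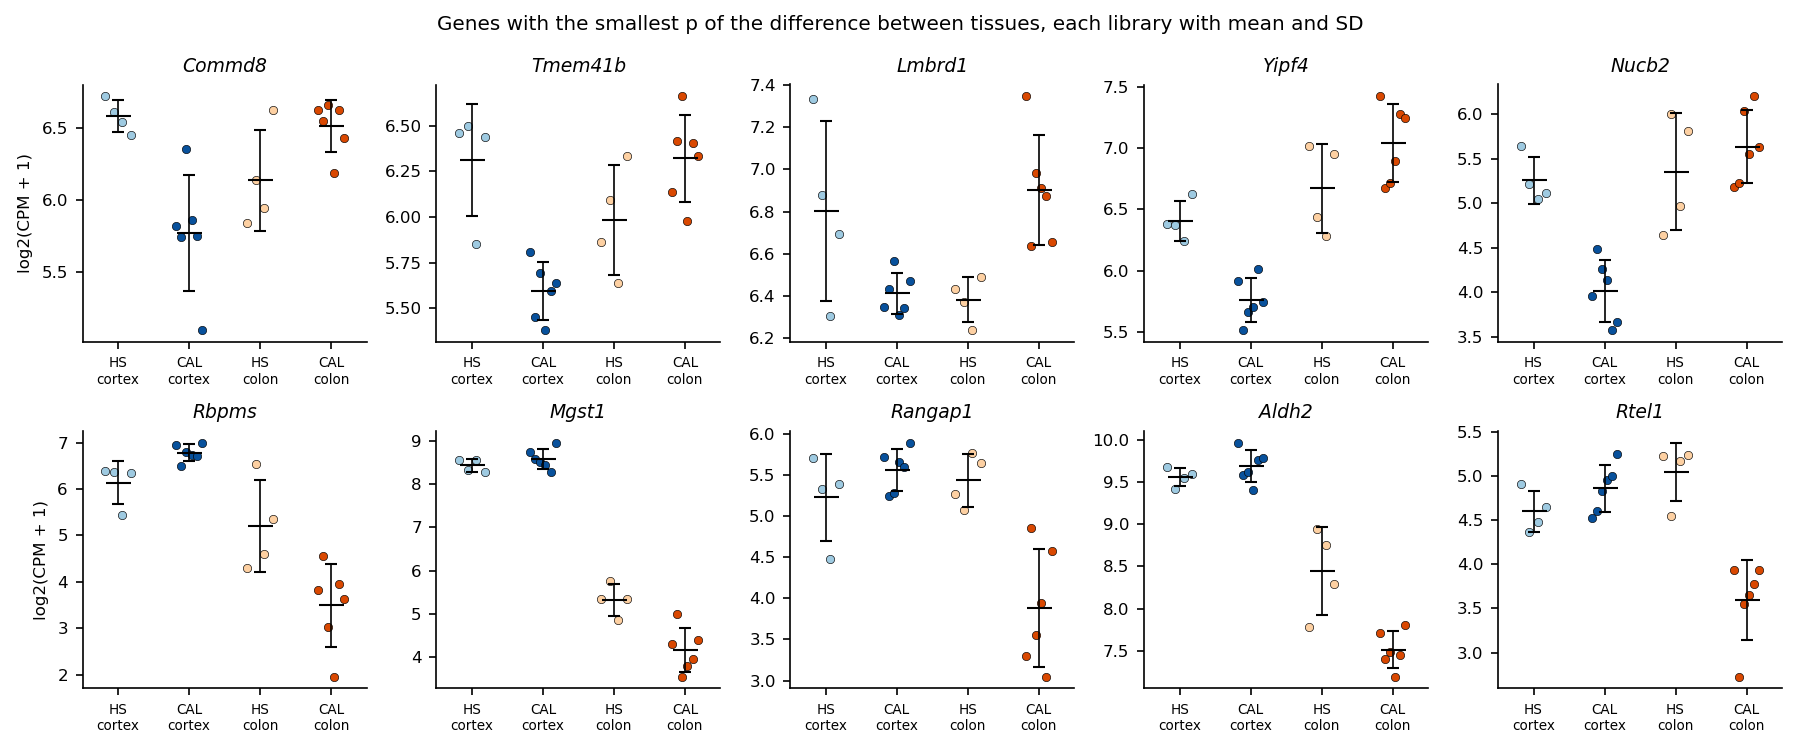
Level of the 10 genes with the smallest p of the difference in each library as log2(CPM + 1), by tissue and treatment, with the mean and SD of each group as bars. Group means of the upper row are lower in cortex CAL than in cortex HS, and those of the lower row lower in colon CAL than in colon HS, with cortex groups that overlap except for Rbpms; the vertical axes do not start at 0.

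Fitted alone, the cortex gave 30 genes out of 7119 (0.421%), 17 higher and 13 lower in CAL, and these were read in the colon. There 18 of the 30 were tested and 12 were not. Of the 18, 8 had the same sign and 10 the opposite sign. At an unadjusted p under 0.05 (6.48% of genes in the fit of colon alone), 4 had the same sign (Hba-a1, Hba-a2, Hbb and Marcks) and 0 the opposite. Of the 18, 10 had an unadjusted p under 0.05 for the difference (7.86% of all genes) and 0 an adjusted p under 0.05. They were chosen by the cortex effect, which is part of the difference, so nothing is read from that count.

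Among those 18, Cotl1, which binds actin filaments, rose in cortex by 1.16 (SE 0.17, adjusted p = 0.00145) with a colon effect of -0.14 (SE 0.37). Mlph, an adaptor for vesicle motors, rose in cortex by 1.63 (SE 0.34, adjusted p = 0.0306) with a colon effect of -0.04 (SE 0.33). Hpcal1, a calcium sensor, rose by 0.78 (SE 0.16, adjusted p = 0.0259) with a colon effect of -0.32 (SE 0.26). Nr2f6, an orphan nuclear receptor, rose by 0.87 (SE 0.17, adjusted p = 0.0191) with a colon effect of -0.13 (SE 0.25). Sppl2a, a protease within membranes, fell by 0.84 (SE 0.14, adjusted p = 0.00523) with a colon effect of 0.07 (SE 0.25). None of these 5 passed for the difference in the joint fit; they were picked after their values were seen. The Cotl1 call held without each library in turn. Mlph lost it without HS replicate 1, 2 or 4 or CAL replicate 1 or 4, Hpcal1 without HS replicate 1, 2 or 3, Nr2f6 without HS replicate 1, 2 or 4, and Sppl2a without HS replicate 2 (adjusted p from 0.0516 to 0.143). The count of 30 was 9, 12, 13 or 19 without cortex HS replicate 2, HS replicate 4, HS replicate 1 or CAL replicate 1, and 20 without CAL replicate 4.

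Vitamin D genes could hardly be compared between the tissues, because most passed the filter on low counts in 1 of them or in neither. Of 20 listed vitamin D receptor targets and metabolism genes, 8 were tested in cortex, 6 in colon and 2 in both. In the fit of cortex alone 2 of the 8 passed (0.421% of all genes), Cyp24a1 and Tns1, both higher. Tns1, not tested in colon, rose by 0.97 (SE 0.18, adjusted p = 0.0114), a call lost in 1 of the 10 fits without a library (0.106). Of the 2 tested in both tissues neither passed for the difference. Both differences were negative, that of the gene other than Vdr at an unadjusted p under 0.05 (4.15% of all genes). Cyp24a1 was at 44.6, 72.7, 81.7 and 37.4 CPM in cortex HS and 81.3 to 254 (median 137) CPM in cortex CAL, with CAL replicates 2 and 4 level with the top HS library. It rose in the fit of cortex alone by 1.47 (SE 0.31, adjusted p = 0.0308), a call lost with robust empirical Bayes (0.166) and without cortex HS replicate 1, 2 or 4 or CAL replicate 1 (0.0674 to 0.129). In colon it was at 0 in 9 of 10 libraries and at 2.81 CPM in CAL replicate 2, which is 1 count.

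Cyp27b1 was at 4.46, 3.03, 7.10 and 3.62 CPM in cortex HS and 0 to 1.94 CPM in cortex CAL, too low for the test. These are 2 to 3 counts per HS library and 0 to 1 per CAL library, all under the limit of 3 counts or at it, so no difference is read from them. In colon it was at 0 in all 10 libraries. Vdr, the receptor itself, was at 89.1, 86.3, 88.8 and 133 CPM in cortex HS and 85.5 to 243 (median 122) CPM in CAL, and at 306, 161, 339.9 and 282 CPM in colon HS and 236 to 394 (median 377) CPM in CAL. In each tissue 5 of 6 CAL libraries lay above the HS mean. Its effects were 0.51 (SE 0.26, adjusted p = 0.660) and 0.33 (SE 0.24, adjusted p = 0.650), and the difference between them was -0.18 (SE 0.35, adjusted p = 0.917).

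**Figure D4:**
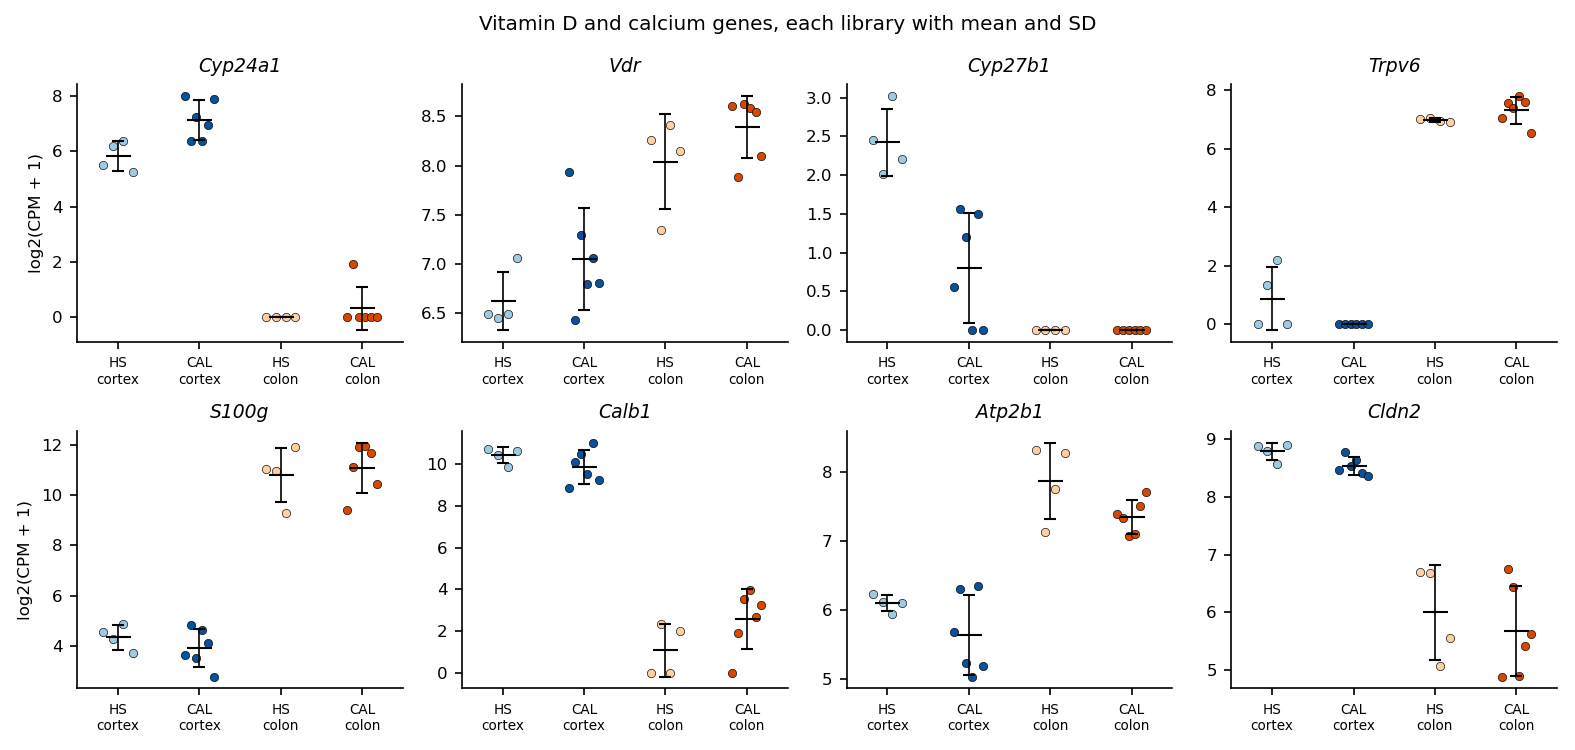
Level of 8 vitamin D and calcium genes in each library as log2(CPM + 1), by tissue and treatment, with the mean and SD of each group as bars. Cyp24a1 and Calb1 are high in cortex and near 0 in colon, Trpv6 and S100g the reverse; the scales differ between panels.

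No calcium transport gene described here passed in either tissue. Trpv6 was at 129, 133, 121 and 119.6 CPM in colon HS and 91.2 to 220.4 (median 175) CPM in colon CAL, an effect of 0.36 (SE 0.25, adjusted p = 0.919) in the fit of colon alone. In cortex it was at 0 to 3.55 CPM in HS and 0 in all CAL libraries. S100g was at 2122, 1966, 629 and 3840.1 CPM in colon HS and 684 to 3995 (median 2740.4) CPM in CAL, and at 22.3, 18.2, 28.4 and 12.1 CPM in cortex HS and 5.85 to 27.2 (median 13.8) CPM in CAL. Its difference was 0.56 (SE 0.71), less than its own error.

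Calb1, the calcium carrier of the distal tubule, was at 1702, 1382, 927 and 1593 CPM in cortex HS and 459 to 2073 (median 911) CPM in CAL, an effect of -0.41 (SE 0.28), and at 0 to 14.4 CPM in colon. Atp2b1, the calcium pump of the cell membrane, had effects of -0.40 (SE 0.27) in cortex and -0.58 (SE 0.23) in colon, and Cldn2, a pore-forming claudin, -0.26 (SE 0.26) and -0.49 (SE 0.32). The differences of Atp2b1 and Cldn2, -0.18 and -0.23, turned positive under some alternatives. Of the 15 listed calcium transport genes 5 were tested in both tissues, with median effects of -0.30 in cortex and -0.49 in colon. None passed for the difference.

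Interferon response and cholesterol genes had the highest median differences among the function lists with at least 5 genes tested in both tissues. Interferon genes are switched on by viral or microbial signals. Of 21 listed, 8 were tested, with a median effect of -0.08 in cortex and 0.58 in colon, and a median difference of 0.68 against -0.02 over all genes. None passed for the difference, 7 of 8 were positive and 2 were positive at an unadjusted p under 0.05 (3.71% of all genes). Isg15, a ubiquitin-like protein, was at 38.5, 16.3, 32.6 and 18.4 CPM in colon HS and 40.3 to 94.5 (median 69.3) CPM in colon CAL, and at 33.4, 18.2, 46.2 and 14.5 CPM in cortex HS and 7.05 to 35.2 (median 18.9) CPM in cortex CAL. Irf7, an interferon regulatory factor, was at 36.5, 34.7, 34.9 and 64.4 CPM in colon HS and 70.6 to 196 (median 99.5) CPM in CAL. Both were apart in colon and overlapped in cortex. Their differences were 1.77 (SE 0.55, adjusted p = 0.361) and 1.27 (SE 0.53, adjusted p = 0.555), and that of Irf9, another factor of the family, was 1.01 (SE 0.58). With colon HS replicate 3 kept, the differences of Isg15 and Irf7 were 0.72 and 0.44.

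Of 21 listed genes of cholesterol synthesis and uptake, 13 were tested in both tissues. Their median effect was -0.08 in cortex and 0.32 in colon, and 10 of 13 differences were positive, 2 of them at an unadjusted p under 0.05 (3.71% of all genes) and 0 past the adjusted threshold. Sc5d, a late enzyme of the pathway, was at 196, 148, 142 and 130.3 CPM in cortex HS and 69.3 to 126 (median 89.8) CPM in CAL, with no overlap, and its difference was 1.13 (SE 0.35, adjusted p = 0.363), or 0.36 with colon HS replicate 3 kept. Insig1, the sterol sensor that restrains the pathway, had effects of -0.36 (SE 0.43) in cortex and 0.85 (SE 0.34) in colon. Hmgcs1, an early enzyme, had -0.51 and 0.55.

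Antigen presentation genes had differences of both signs. Of 22 listed genes 15 were tested in both tissues, with 0 past the threshold, 2 higher and 3 lower in colon at an unadjusted p under 0.05 (3.71% and 4.15% of all genes), and a median difference of 0.08. The class I gene RT1-A2 had effects of 0.14 (SE 0.32) in cortex and 1.17 (SE 0.31) in colon. Of the class II genes, RT1-Ba had 0.55 (SE 0.56) and -1.22 (SE 0.51). Cd74, the class II invariant chain, had -0.03 (SE 0.45) and -1.51 (SE 0.44), and RT1-Bb 0.00 (SE 0.50) and -1.43 (SE 0.45). Colon HS replicates 4 and 5 had the highest Cd74 levels, 11801 and 3619 CPM, against 739 and 817 CPM in replicates 1 and 2 and 981 to 2420.5 (median 1198) CPM in CAL. Without colon HS replicate 4 the differences of RT1-Ba, Cd74 and RT1-Bb went from -1.78, -1.48 and -1.42 to -0.24, -0.14 and -0.02, so these values rest on that library. That of RT1-A2, 1.03, was 0.17 with colon HS replicate 3 kept. RT1 genes are a family of close copies whose reads may be shared. B and plasma cell markers were highest in colon HS replicates 4 and 5, as given above, and macrophage markers summed to 1662 to 3690 CPM in colon HS and 1534 to 2784 CPM in colon CAL. Their part in the result was not tested.

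Actin genes had differences of both signs, and smooth muscle markers of 1 sign. Of 29 listed actin filament regulators, 23 were tested in both tissues, with a median difference of -0.13, 11 positive and 12 negative. None passed for the difference and 4 were lower in colon at an unadjusted p under 0.05 (4.15% of all genes). Those 4 are described here. Tln1, which links integrins to actin, had a difference of -1.18 (SE 0.35, adjusted p = 0.361), Cotl1 -1.27 (SE 0.44), Msn -1.28 (SE 0.54) and Flna, an actin crosslinker, -1.31 (SE 0.59). Of the 16 smooth muscle markers 8 were tested in both tissues, and all 8 differences were negative, with a median of -0.62 and 1 at an unadjusted p under 0.05 (4.15% of all genes). Tagln had effects of 0.48 (SE 0.48) in cortex and -1.15 (SE 0.39) in colon, and Myl9 -0.27 and -1.06. Without colon HS replicates 2 and 5 the differences turned positive for Tagln (0.49), Myl9 (0.87), Hspb6 (0.47) and Smtn (0.08). Those of Tln1 (-1.50), Cotl1 (-1.75) and Msn (-1.59) stayed negative, and that of Flna was -0.42. Colon HS replicate 4 held the highest colon levels of Msn (517 CPM), Cotl1 (428 CPM) and Tln1 (265 CPM), and without it their differences were -0.48, -0.63 and -0.70.

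Transport genes of epithelia were compared as well. Of 20 listed sodium transport genes and regulators 13 were tested in both tissues, with a median difference of 0.02, 7 positive and 6 negative, 0 past the threshold and 3 higher in colon at an unadjusted p under 0.05 (3.71% of all genes). Fxyd4, a regulator of the sodium pump, was at 40.1, 34.8, 139 and 56.7 CPM in cortex HS and 12.1 to 70.3 (median 30.9) CPM in CAL, and at 1545, 1217, 1518 and 1537 CPM in colon HS and 1358 to 2611 (median 2085) CPM in CAL, a difference of 1.32 (SE 0.46), or 0.82 without cortex HS replicate 3. Slc9a3, the sodium-proton exchanger, had effects of -0.37 (SE 0.53) and 1.19 (SE 0.50). Tsc22d3, a gene induced by steroid hormones, had -0.76 (SE 0.26) and 0.01 (SE 0.25). Fxyd2, the gamma subunit of the sodium pump, had 0.38 and -0.03, a difference of -0.41. Of 11 tight junction genes tested in both, none passed, 8 differences were positive and the median was 0.34. Cldn4, a claudin that tightens the barrier, had effects of -0.05 in cortex and 0.82 (SE 0.29) in colon.

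Among the tissue cytokines, Cxcl12, a chemokine of stromal cells, had opposite signs, with effects of -0.59 (SE 0.23) in cortex and 0.64 (SE 0.27) in colon and a difference of 1.23 (SE 0.35, adjusted p = 0.361). It is 1 of the 12 genes with opposite signs at an unadjusted p under 0.05 in both tissues. Il33, an alarm signal of barrier cells, was at 296, 344, 295 and 321 CPM in cortex HS and 217 to 269.7 (median 233) CPM in CAL, and at 93.7, 212, 156 and 359 CPM in colon HS and 34.2 to 139.8 (median 91.2) CPM in CAL. Its effects were -0.40 (SE 0.25) and -1.18 (SE 0.27, adjusted p = 0.0863). Of the 6 genes of this list tested in both tissues, 0 passed for the difference.

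Metabolic and housekeeping lists followed. The 18 fatty acid oxidation genes tested in both tissues had a median difference of -0.03, the 30 nuclear-encoded respiratory chain genes 0.13 and the 37 cytosolic ribosomal protein genes -0.08. None of their members passed.

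Growth and matrix lists had negative median differences. All 6 cell cycle and DNA replication genes tested in both tissues had a negative difference (median -0.37), of which Mcm7, a subunit of the replication helicase, had an unadjusted p under 0.05 (4.15% of all genes lower), with a difference of -1.23 (SE 0.51). Rrm1, a subunit of ribonucleotide reductase, had a difference of -0.59 (SE 0.38). Of 8 extracellular matrix genes 7 were negative (median -0.44), with Col4a1, a basement membrane collagen, at -0.71 (SE 0.45) and Bgn, a matrix proteoglycan, at -0.59 (SE 0.39). No member of either list passed. The 21 protein folding genes had a median difference of 0.00, with Hsph1, a heat shock chaperone, at -1.05 (SE 0.41) and Hsp90ab1 at -0.44 (SE 0.25).

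**Figure D5:**
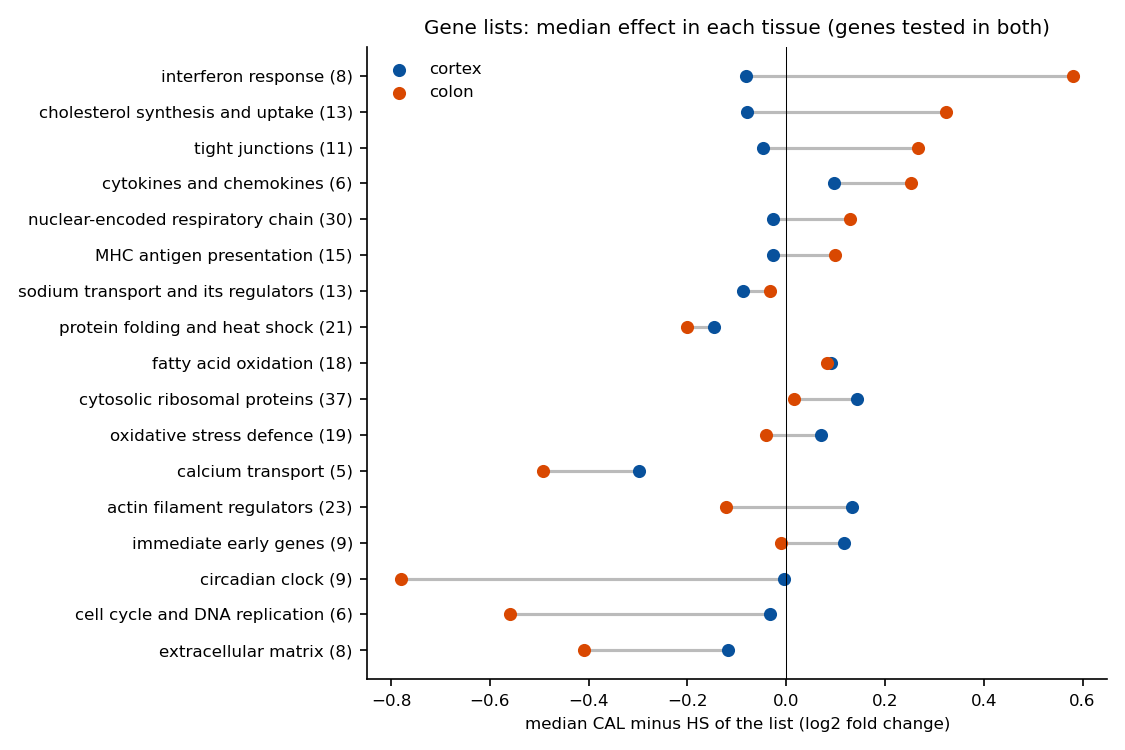
Median log2 fold change of CAL over HS in cortex (blue) and colon (orange) for each function list with at least 5 genes tested in both tissues, with the number of genes in brackets and lists ordered by their median difference. Interferon and cholesterol genes lie at the top, with colon medians of 0.58 and 0.32, and clock genes have the lowest colon median, -0.78.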

How the data were processed

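RNA-seq of rat kidney cortex and colon was used. The deposited values are raw counts, whole reads per gene symbol for 20207 genes; per the submitters' processing notes the authors used FastQC 0.11.9, Trimmomatic 0.39, HISAT2 2.1.0, featureCounts 1.6.5 and the build Rnor_6.0. The gene annotation and strand setting are not given in the sources used here. No 2 libraries held identical counts (0 pairs).

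From these counts, edgeR 4.0.16 in R 4.3.3 was fitted to 4 groups of 20 libraries, with TMM scaling, genes passing its filter (minimum count 10, minimum total 15) in each tissue, and quasi-likelihood tests of CAL against HS in cortex, in colon, and of colon minus cortex. Each tissue was also fitted alone. P-values were adjusted by Benjamini-Hochberg over all genes tested, threshold 0.05. For genes moving the same way, the larger of both p-values was adjusted. Standard errors come from the quasi-likelihood F. Levels are CPM with TMM scaling; marker sums are plain CPM. The tests were checked on simulated data with 200 changed genes.

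The libraries, gene lists and comparison were chosen with earlier results of these data known. Named were the 5 genes each way with the smallest p of the difference, the 10 each way with the smallest larger p, up to 4 members of each described list, and fixed vitamin D, calcium, globin and clock genes. Some lists have fewer members described, and a few results are not reported here. Bcat2, Alas2, Hba-a3, Usp2, Tns1 and genes called only under an alternative were named after their values were seen. Upstream sequences are RefSeq's, build GRCr8. Alternatives included DESeq2 1.42.0, limma 3.58.1, other scalings and filters, thinning and leaving out each library. Chosen after seeing the data were 1 voom weight per tissue, leaving out colon HS replicates 2 and 5, and the alternatives of the fits of each tissue alone.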

Additional observations from a re-analysis of the deposited data

Results flagged for a closer look

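A library lay far from the rest of its group for 8 of 172 groups of values checked (41 named genes and 3 marker sums), 4.65%, where chance flags about 1 in 20. In cortex HS replicate 3, Tmem41b (56.8 CPM, next 85.7) and Rbpms (42.6 CPM, next 80.8) were low, and Vdr was high in cortex HS replicate 4 (133 CPM, next 89.1). In cortex CAL, Rab17 was high in replicate 1 (247 CPM, next 187) and Nr1d1 in replicate 6 (83.9 CPM, next 45.6). In colon, Rtel1 was low in HS replicate 2 (22.5 CPM, next 34.9), Dbp was high in CAL replicate 3 (39.4 CPM, next 20.9), and Cyp24a1 was counted in CAL replicate 2 alone (2.81 CPM, the others at 0). The small intestine marker sum of 25063 CPM in colon HS replicate 3, which enters no comparison here, lay above the 1079 CPM of the highest other colon library.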

How the results depend on the processing

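The count of genes that differed between tissues, 0, became 1 with DESeq2 (Rbpms) and 1 without colon HS replicates 2 and 5 (Hao2), and 0 to 13 on leaving out single libraries. The cortex count of 0 in the joint fit became 2 with no filter, 2 with the 1 CPM filter, 2 with thinned counts, 60 with voom library weights, 48 with 1 weight per tissue and 18 with each tissue fitted alone, and 0 to 3 without single libraries. The colon count of 7 became 19 with DESeq2, 15 with NC libraries added, 2 with the 1 CPM filter, 4 with thinned counts, 0 with voom library weights, 0 with 1 weight per tissue (282 genes at an unadjusted p under 0.05) and 1 fitted alone, and 1 to 86 without single libraries. Same-way calls were 0 to 3 without single libraries. The 39 same-way genes at an unadjusted p became 62 with no filter, 61 with voom library weights and 23 when thinned, and 29 to 63 without single libraries; the 12 opposite genes became 19 with no filter, 19 with the 1 CPM filter, 19 with NC libraries, 5 when thinned and 29 without colon HS replicates 2 and 5, and 5 to 31. The 30 calls of cortex alone became 85 with DESeq2, 131 with no filter, 62 with NC libraries, 52 with robust empirical Bayes and 47 with voom library weights, and 9 to 37; the 1 of colon alone became 3 with DESeq2 and 40 with no filter, and 1 to 2. The cause of these shifts was not tested.

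Whether replicate numbers pair libraries across tissues was left unsettled, and the main fit used no pairing. Over 9 pairs of the same treatment and number across tissues, deviations correlated by 0.02 to 0.26, all of them positive. Of these, 4 were above 0.1, and 4 pairs matched best both ways. Over 8 pairs of the same number across treatments, deviations correlated by -0.11 to 0.25, with 1 above 0.1. Should the tissues share animals, the cortex and colon effects of a gene are not independent. With the number as a replicate block, 2 colon genes passed, in colon alone 2, and the difference had 0 calls; with treatment and number as a random block (estimated correlation 0.098) 1 colon gene passed.

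Signs of small effects turned. The Atp2b1 difference became 0.041 and 0.096 in the fits with a replicate block by number and by treatment and number, and ranged from -0.36 to 0.00022 without single libraries. The Cldn2 difference became 0.051 when thinned and ranged from -0.52 to 0.031. The Bcat2 cortex effect became 0.0092 with no filter, 0.0071 with the 1 CPM filter, 0.037 with the replicate block and 0.034 when thinned, and ranged from -0.067 to 0.048. The S100g effect in colon alone ranged from -0.056 to 0.68. Without colon HS replicates 2 and 5 the differences of Tagln, Hspb6, Myl9, Smtn and Cdk4 became 0.49, 0.47, 0.87, 0.079 and 0.053. Depth limits genes below 11.2 CPM.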
